A study of Mus musculus with 10 samples.

Results

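Interferon-induced genes are described here in mouse skin: 44 genes, taken from a list of symbols and matched to the Ensembl IDs of the count files through the GENCODE M21 annotation. They fall into a type I antiviral block of 31 genes and an interferon gamma block of 13 genes, which holds guanylate-binding proteins, immunity-related GTPases and genes of peptide supply to MHC class I. The files hold 49671 gene IDs, of which 18060 passed the filter on low counts, and all 44 members were among these.

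Type I interferons are secreted by cells that sense foreign or misplaced nucleic acid, and act through a shared receptor on neighbouring cells. The receptor signals through JAK kinases to the transcription factor complex ISGF3, of which STAT2 and IRF9 are subunits, and which binds the interferon-stimulated response element (ISRE) in the promoters of antiviral genes. Interferon gamma, made by T cells and NK cells, acts through its own receptor on promoters that carry the gamma-activated site (GAS), and induces GTPases that attack intracellular microbes and the immunoproteasome. Keratinocytes make interferon kappa, a type I interferon typical of skin.

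In the study, whole skin of 10 mice at 22 weeks of age was sequenced as polyadenylated RNA, with 1 library for each mouse, and the title links the altered Npy gene to skin inflammation. The WT group holds 5 wildtype siblings, labelled 2 female and 3 male, and the NPYtet group holds 5 homozygous mutants of the B6;129S4-Npytm2Rpa/J strain, labelled 3 female and 2 male. Both groups come from this strain, whose name gives a mixed B6 and 129S4 background, were kept under standard conditions and have no treatment named in their labels. The p-values measure the spread between these mice.

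Npy, the altered gene, checked the genotype labels: it stood at 0.094 to 2.86 CPM (counts scaled to a common library size) in WT and at 96.2 to 485 CPM in NPYtet, without overlap (two-sided exact permutation p = 0.00794, n = 5 per group, the smallest p these libraries can give). Total counts ran from 23209405 to 53357695 reads. All 5 keratinocyte markers were detected, with summed levels of 8349 to 56589 CPM. Libraries WT 2 and NPYtet 5, both labelled male, stood apart, with 21144 and 19953 genes having a read against 24710 to 26323 elsewhere, and with ribosomal RNA shares of 1.83% and 4.71% of reads against 0.244% to 0.444%. The library NPYtet 1 is labelled female but had 2 Xist reads and 1513 reads of the Y-linked Ddx3y. The other 4 libraries labelled female had 14149 to 20177 Xist reads and no Ddx3y read. Results by sex use the labels as given, and each is also given without this library where that changes it.

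The promoters that carry interferon elements are shown first, since both blocks share them and they frame the comparison of the blocks. RefSeq start-site windows on GRCm38.p6 (250 bases before to 50 after the start) matched 32 of the 44 members. Not matched were Mx1, Mx2, Oas2, Usp18, Dhx58, Rtp4, Zbp1, Parp14, Ifi27l2a, Gbp4, Gbp6 and Iigp1. The ISRE core was searched as GAAANNGAAA on both strands, and neighbouring matches may overlap. It was present in 19 of 32 windows (59.4%), in 12 of 22 of the type I block and in 7 of 10 of the interferon gamma block, against 3.99% of the 27025 genes with a window. The GAS core was searched as TTCNNNGAA, a palindrome that reads the same on both strands, and was present in 8 of 32 windows (25.0%) against 9.55% of all genes. A match describes these letters and is not a measured binding site. The windows of Oasl1, Irf7 and Ifnk held neither set of letters.

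Stretches of 60 bases around the matches are given 5′ to 3′ on the gene's strand, with the ISRE matches in capitals. They were chosen for the members on which the results turn (Isg15, Oas1a, Oas1g, Gbp2b), for a near-identical gene pair (Ifit3 and Ifit3b) and for 2 GTPases of the interferon gamma block (Gbp2 and Irgm1). Isg15 lies at chr4:156200856-156200915 on the minus strand, Oas1a at chr5:120907526-120907585 minus, Oas1g at chr5:120887614-120887673 minus, Ifit3 at chr19:34583365-34583424 plus, Ifit3b at chr19:34607761-34607820 plus, Gbp2 at chr3:142620579-142620638 plus, Gbp2b at chr3:142594685-142594744 plus and Irgm1 at chr11:48871421-48871480 minus.
Isg15: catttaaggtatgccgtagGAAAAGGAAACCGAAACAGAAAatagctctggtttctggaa
Oas1a: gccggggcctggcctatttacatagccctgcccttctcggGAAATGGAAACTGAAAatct
Oas1g: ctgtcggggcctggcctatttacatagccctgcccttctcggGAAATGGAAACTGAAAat
Ifit3: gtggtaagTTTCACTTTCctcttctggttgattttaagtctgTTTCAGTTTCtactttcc
Ifit3b: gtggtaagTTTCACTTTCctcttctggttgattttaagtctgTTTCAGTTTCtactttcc
Gbp2: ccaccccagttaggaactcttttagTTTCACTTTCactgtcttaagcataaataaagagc
Gbp2b: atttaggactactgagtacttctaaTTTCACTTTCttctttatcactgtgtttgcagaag
Irgm1: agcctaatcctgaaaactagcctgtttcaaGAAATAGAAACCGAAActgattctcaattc
Isg15 had 3 overlapping matches in its window, and Oas1a, Oas1g and Irgm1 had 2 overlapping matches each. The stretches of Ifit3 and Ifit3b are identical. Those of Oas1a and Oas1g hold the same run of capitals.

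Per kilobase of combined exon length, the most abundant members over all 10 libraries were Ifi27l2a at a mean of 162 RPKM, Bst2 (tetherin, which holds budding virus at the cell surface) at 41.7 RPKM, Tap1 (a subunit of the peptide transporter for MHC class I) at 33.0 RPKM and Isg15 (a ubiquitin-like modifier) at 28.3 RPKM. The lowest were Ifi44 at 0.318 RPKM, Gbp2b at 0.362 RPKM and Gbp6 at 0.405 RPKM. In CPM, which compares 1 gene across libraries, the spread of type I members within a genotype differed by gene. Isg15 ran from 8.03 to 55.5 CPM in WT and from 5.24 to 47.8 CPM in NPYtet. Mx1 ran from 3.91 to 6.95 CPM in WT and from 0.463 to 24.1 CPM in NPYtet.

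No member passed the test between genotypes: 0 of 44 reached a Benjamini-Hochberg adjusted p under 0.05 in edgeR's quasi-likelihood test, where 0.00554% of all genes did (Npy alone). At an unadjusted p under 0.05 the edgeR count was also 0 of 44, against 3.59% of all genes, and the genotype groups overlapped in every member, against 0.305% of genes without overlap. DESeq2 and limma voom called 0 members as well, with 1 and 3 members lower in NPYtet at their unadjusted p under 0.05, against 3.17% and 2.45% of all genes. In the type I block, 13 log2 fold changes (NPYtet minus WT) were positive and 18 negative, from -1.16 to 0.30 with a median of -0.06. In the interferon gamma block, 11 were positive and 2 negative, from -0.41 to 0.47 with a median of 0.25. The median over all genes tested was -0.00994.

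Among the effectors of the type I block, the oligoadenylate synthetase family, whose product activates RNase L, had the lowest values by genotype. Oas1g stood at 2.76, 17.1, 3.69, 4.19 and 12.2 CPM in WT 1 to 5 and at 1.01, 10.2, 1.55, 1.44 and 0.331 CPM in NPYtet 1 to 5. All NPYtet libraries except NPYtet 2 were below every WT library, and NPYtet 2 was above WT 1, WT 3 and WT 4. The log2 fold change was -1.16 (SE 0.62, edgeR unadjusted p = 0.0796, adjusted p = 0.999). Oas1a read 6.66, 45.9, 10.9, 9.55 and 40.4 CPM in WT 1 to 5 and 4.55, 35.2, 4.40, 4.21 and 3.24 CPM in NPYtet 1 to 5, with the same libraries high and low. Its log2 fold change was -0.86 (SE 0.53, edgeR adjusted p = 0.999), and those of Oas3 and the OAS-like Oasl1 were -0.67 (SE 0.76) and -0.69 (SE 0.58), each with an adjusted p of 0.999. With Oas2 and Oasl2, all 6 family members had negative values, with a median of -0.68, and the same held with DESeq2, with limma voom and with other scaling. The family's median was -1.78 without NPYtet 2, -0.31 without NPYtet 5 (4 of 6 negative) and -0.17 without WT 2 and NPYtet 5 (5 of 6 negative). Also, 4 of 6 were negative without WT 3, and 5 of 6 without NPYtet 1 or without NPYtet 3.

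Irf7, the transcription factor that amplifies type I interferon production, stood at 26.5, 151, 43.0, 37.2 and 105 CPM in WT 1 to 5. In NPYtet 1 to 5 it stood at 18.3, 103, 19.1, 16.6 and 12.7 CPM. As for Oas1g, 4 NPYtet libraries were below all WT libraries and NPYtet 2 was among the highest. The log2 fold change was -0.85 (SE 0.48, edgeR adjusted p = 0.999). The ISGF3 subunits Irf9 and Stat2 had log2 fold changes of -0.04 and -0.09.

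Isg15 stood at 27.8 ± 22.8 CPM (SD, n = 5) in WT and 15.1 ± 18.3 CPM (SD, n = 5) in NPYtet. Its log2 fold change was -0.56 (SE 0.43, edgeR adjusted p = 0.999), and the difference of the means was smaller than either SD. Of its conjugation partners, Usp18, the protease that removes ISG15 and dampens receptor signalling, had a value of 0.26, and the ligase Herc6 had 0.18. For Bst2 the log2 fold change was -0.31 (SE 0.36), and for Ifih1, the cytoplasmic RNA sensor MDA5, it was 0.30 (SE 0.39), both with an edgeR adjusted p of 0.999. The other RNA helicases, Ddx58 (RIG-I) and Dhx58 (LGP2), had 0.21 and -0.39, and Zbp1, a sensor of Z-form nucleic acid, had -0.22.

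The IFIT proteins bind viral RNA and block its translation. Their log2 fold changes were -0.34 for Ifit1, 0.16 for Ifit2, -0.11 for Ifit3 and 0.10 for Ifit3b. Mx1 and Mx2, genes of the dynamin-like GTPase family, had 0.29 and 0.11, and Rsad2 (viperin, which makes a chain-terminating nucleotide) had 0.05. The annotation types Mx2 as a polymorphic pseudogene. Cmpk2, a mitochondrial nucleotide kinase encoded beside Rsad2, and Parp14, an ADP-ribosyltransferase, both had 0.30. The remaining type I members, Rtp4, Xaf1, Ifi44, Ifi27l2a and Ifi35, lay between -0.24 and 0.21.

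In the interferon gamma block, the values by genotype were mostly positive and small. Iigp1, an immunity-related GTPase that disrupts pathogen vacuoles, had the highest, with 17.6, 8.25, 26.7, 14.3 and 6.53 CPM in WT 1 to 5 and 29.2, 24.3, 20.3, 18.2 and 12.0 CPM in NPYtet 1 to 5. The groups overlapped: NPYtet 1 was above every WT library, and the others lay within the WT range. Its log2 fold change was 0.47 (SE 0.34, edgeR adjusted p = 0.999). The related GTPases Irgm1 and Igtp had 0.43 (SE 0.49) and 0.33 (SE 0.42), Gbp6 had 0.36 (SE 0.39) and Gbp2 had 0.26 (SE 0.34), all with an edgeR adjusted p of 0.999. The signs of Irgm1, Igtp and Gbp2 turned without NPYtet 2 (-0.35, -0.18 and -0.08), and the block's median was -0.04 with limma voom. The peptide-supply genes Tap1, Psmb8 and Psmb9, of which the last 2 encode immunoproteasome subunits, had 0.02, 0.11 and 0.21.

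**Figure D1:**
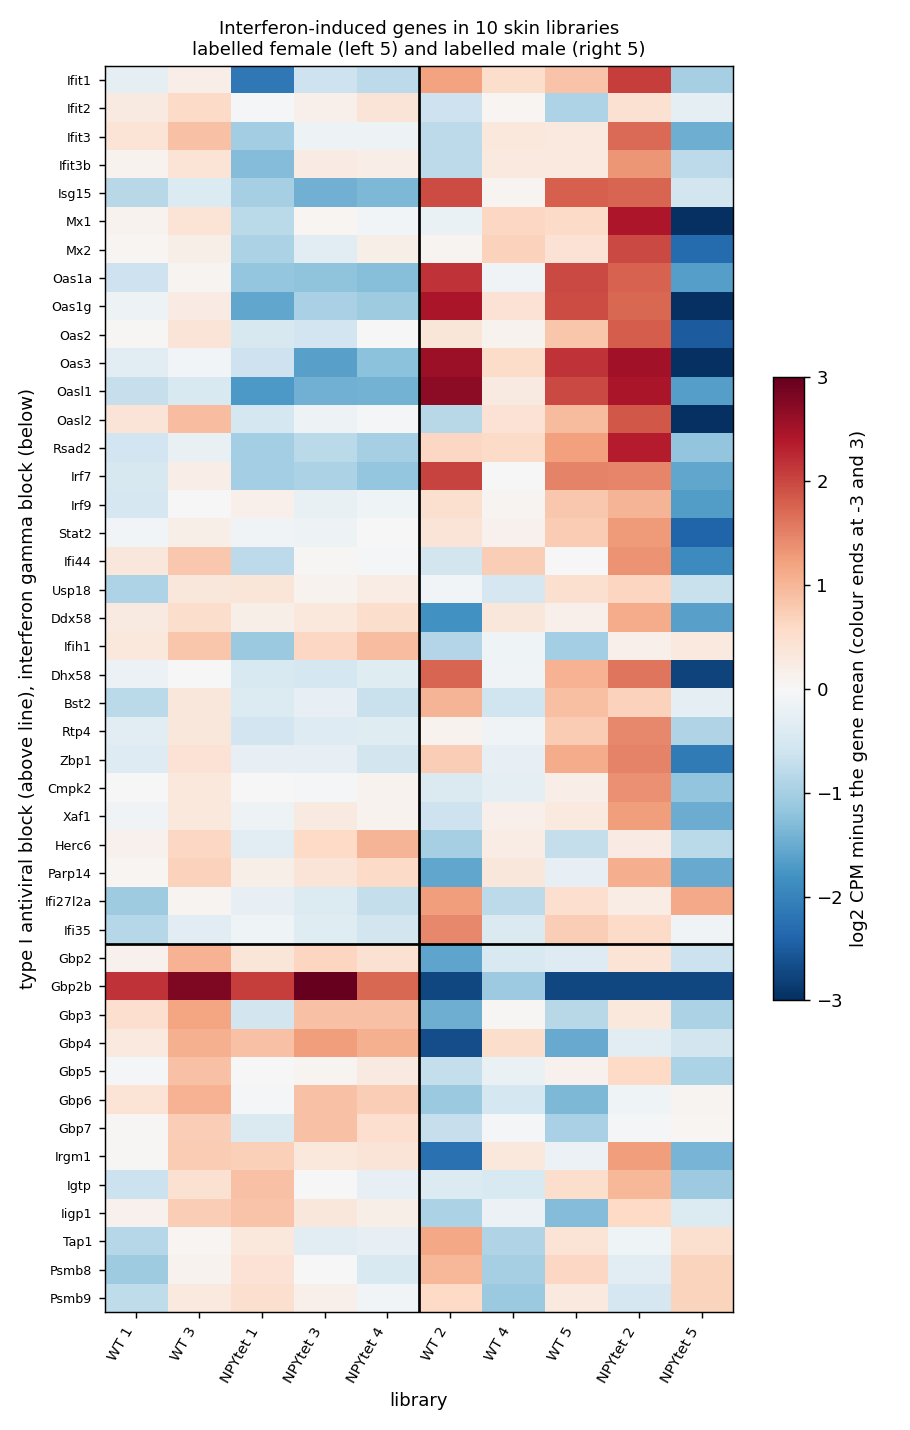
Log2 CPM of each member (vertical axis) in each library (horizontal axis), after subtracting the member's mean over 10 libraries, with the 5 libraries labelled female on the left, the 5 labelled male on the right, and the type I antiviral block above the horizontal line. NPYtet 2 is the highest library in 18 of 31 type I members and NPYtet 5 the lowest in 18, and Gbp2b is high in all libraries labelled female and low in all labelled male.

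Individual NPYtet libraries lay at both ends of the type I block. NPYtet 2 was the highest NPYtet library in 28 of 31 type I members and the highest of all 10 libraries in 18. NPYtet 5 was the lowest NPYtet library in 23 of 31 and the lowest of all 10 in 18. WT 2 was the highest of all 10 libraries in 10 type I members and the lowest in 3. The heat map shows these 3 columns beside the others. For Mx1 the span within NPYtet ran from 0.463 CPM in NPYtet 5 to 24.1 CPM in NPYtet 2, while WT ran from 3.91 to 6.95 CPM. NPYtet 5 is one of the libraries with few genes having a read and with much ribosomal RNA (above), and its mitochondrial genes took 9.26% of reads against 1.86% to 3.03% elsewhere; the part of these values in its low levels was not tested.

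The genotype values of the type I block moved with NPYtet 2. Without it, the block's median log2 fold change was -1.07, and 14 members were lower in NPYtet at an edgeR unadjusted p under 0.05, against 3.17% of all genes, with 0 called after adjustment. Without NPYtet 5 the median was 0.18, and without WT 2, NPYtet 1 and NPYtet 5 it was 0.24.

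A score for each block, the mean over its members of the centred log2 CPM, gives the libraries' order. The type I score was -0.22, 0.42, 0.29, 0.12 and 0.70 in WT 1 to 5 and -0.62, 1.39, -0.32, -0.28 and -1.48 in NPYtet 1 to 5. The NPYtet range thus enclosed the WT range. The interferon gamma score was 0.03, -0.91, 0.86, -0.39 and -0.56 in WT 1 to 5 and 0.46, -0.00, 0.64, 0.40 and -0.52 in NPYtet 1 to 5. The blocks ordered the libraries differently. NPYtet 2, highest in the type I score, lay at the middle of the interferon gamma score, and WT 2, above average in the type I score, was lowest in the interferon gamma score. The middle place of NPYtet 2 averaged unlike subgroups. It scored 0.95 for the immunity-related GTPases, the highest of all libraries, but -0.28 for the guanylate-binding proteins and -0.32 for peptide supply. The value of -0.28 includes Gbp2b, which had 0 reads in NPYtet 2. All 5 libraries labelled female lay at or above 0.03 in the interferon gamma score and all 5 labelled male at or below -0.00. The margin was narrow: these limits were WT 1 and NPYtet 2, where Gbp2b had 61 and 0 reads. A score without Gbp2b was not computed, so the split may rest on this gene. Of the subgroups of the interferon gamma block, only the guanylate-binding proteins separated the labels (0.32 to 1.25 in female, -1.57 to -0.25 in male). In that subgroup too, Gbp2b was the only member whose own levels did not overlap between the labels. Gbp2b had 60 reads in NPYtet 1, the lowest library labelled female, and 0 in most labelled male. The subgroup was not scored without it. The immunity-related GTPases overlapped (-0.16 to 0.82 and -1.20 to 0.95), as did peptide supply (-0.89 to 0.40 and -1.01 to 0.92).

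**Figure D2:**
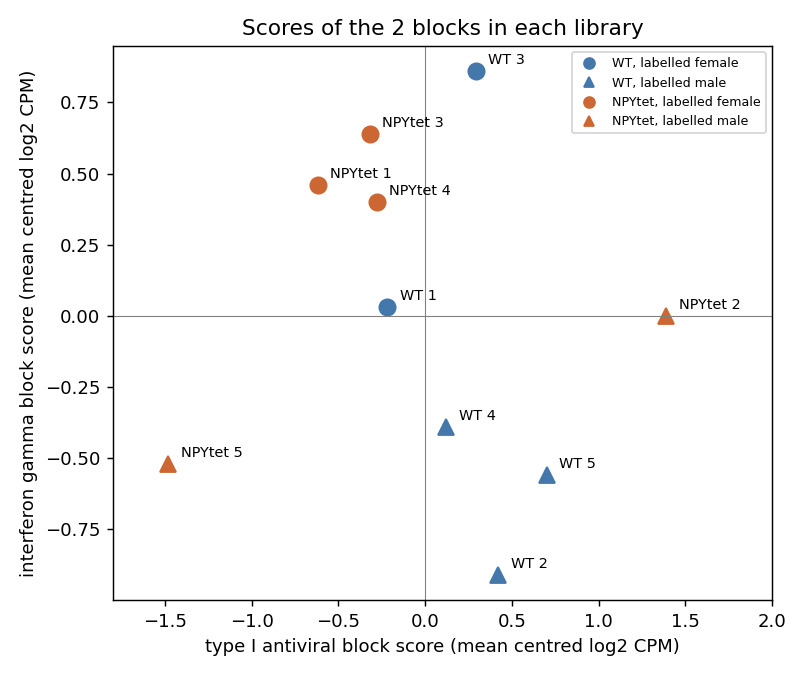
Type I antiviral score (horizontal axis) against interferon gamma score (vertical axis), both as mean centred log2 CPM, with 1 point per library, coloured by genotype and shaped by labelled sex. NPYtet 2 at 1.39 and NPYtet 5 at -1.48 span the horizontal axis. On the vertical axis the libraries labelled female lie above those labelled male, by a narrow margin between WT 1 (0.03) and NPYtet 2 (-0.00).

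Within the libraries labelled female, 15 of 31 type I members were lower in all 3 NPYtet libraries than in both WT libraries, against 8.17% of all genes, and 0 were higher in all 3, against 6.90%. The 15 were Ifit1, Ifit3, Isg15, Mx1, Oas1a, Oas1g, Oas2, Oas3, Oasl1, Oasl2, Rsad2, Irf7, Ifi44, Dhx58 and Rtp4. None of the 13 interferon gamma members was separated this way. Without NPYtet 1, whose Xist and Ddx3y reads contradict its label, the count of type I members was again 15, against 16.6% of all genes lower and 15.6% higher in this smaller comparison, and 1 interferon gamma member was higher. Irf7, for example, stood at 26.5 and 43.0 CPM in WT 1 and WT 3 and at 16.6 to 19.1 CPM in NPYtet 1, 3 and 4. Within the libraries labelled male, 0 members were lower in both NPYtet libraries than in all 3 WT libraries (5.57% of all genes), and 1 type I and 2 interferon gamma members were higher (4.14% of all genes). Neither count was tested, since 3 against 2 libraries cannot reach a p under 0.05 in an exact test, and the difference between the sexes was not tested.

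By labelled sex, the blocks pointed in opposite directions. In the type I block 26 log2 fold changes (male minus female) were positive and 5 negative, with a median of 0.72. In the interferon gamma block 3 were positive and 10 negative, with a median of -0.68, beside a median of -0.0731 over all genes tested. The type I median was -0.21 without NPYtet 2, so its direction rests on that library, while the interferon gamma median was -1.08 without it. Members called by edgeR were 3 of 44, against 2.48% of all genes. In the libraries labelled male, 2 of the type I block were higher (1.36% of genes in that direction) and 1 of the interferon gamma block lower (1.12%). At an unadjusted p under 0.05 the counts were 10 higher, all in the type I block, and 6 lower, all in the interferon gamma block. The share of all genes at that p was 24.6%, with 13.1% higher and 11.5% lower. DESeq2 called 12 members, against 12.8% of all genes, and limma voom 19, against 31.0%.

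Isg15, at chr4:156199424-156200818 (mm10, minus strand), stood at 8.03, 10.7, 7.11, 5.24 and 5.54 CPM in the libraries labelled female (WT 1, WT 3 and NPYtet 1, 3 and 4). In the libraries labelled male (WT 2, WT 4, WT 5, NPYtet 2 and NPYtet 5) it stood at 55.5, 15.1, 49.5, 47.8 and 9.79 CPM. Of these, 4 were above every library labelled female, and NPYtet 5 lay within the female range. Isg15 was higher by 2.19 on the log2 scale in the libraries labelled male (SE 0.45, 4.55-fold, edgeR adjusted p = 0.0239).

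Oasl1, an OAS-like protein that restrains the translation of Irf7, lies at chr5:114923240-114937915 (mm10, plus strand). It stood at 3.02, 3.55, 1.45, 1.75 and 1.79 CPM in the libraries labelled female and at 31.8, 5.84, 19.3, 26.7 and 1.52 CPM in those labelled male, in the same order. Again only NPYtet 5 fell within the female range. Oasl1 rose by 2.81 on the log2 scale (SE 0.62, 6.99-fold, edgeR adjusted p = 0.0311). The calls of Isg15 and Oasl1 were lost without WT 2, WT 3, NPYtet 2, NPYtet 3 or NPYtet 4, with edgeR adjusted p-values of 0.0619 to 0.0879 for Isg15 and 0.0892 to 0.149 for Oasl1. They remained without NPYtet 1.

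Gbp2b, a guanylate-binding protein gene at chr3:142594847-142619179 (mm10, plus strand), went the other way. It had 61, 105, 60, 149 and 50 reads in WT 1, WT 3 and NPYtet 1, 3 and 4, and 0, 7, 0, 0 and 0 reads in WT 2, WT 4, WT 5, NPYtet 2 and NPYtet 5. In CPM the libraries labelled female lay between 1.14 and 3.44, and the highest labelled male, WT 4, at 0.116. It was the only one of 44 members whose groups by labelled sex did not overlap, against 8.44% of all genes. Gbp2b was lower by 5.82 on the log2 scale in the libraries labelled male (SE 0.83, edgeR adjusted p = 0.0047). This fitted value depends on the small prior count of the fit. It is no bound, since most libraries labelled male had 0 reads, which allows up to 3. Leaving out 1 library at a time, it ranged from -9.11 (without WT 4, when all remaining libraries labelled male had 0 reads) to -5.46. The call held without each library in turn, with edgeR adjusted p-values of 0.00141 to 0.0315. NPYtet 1, with its 60 reads, sat with the libraries of its label.

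**Figure D3:**
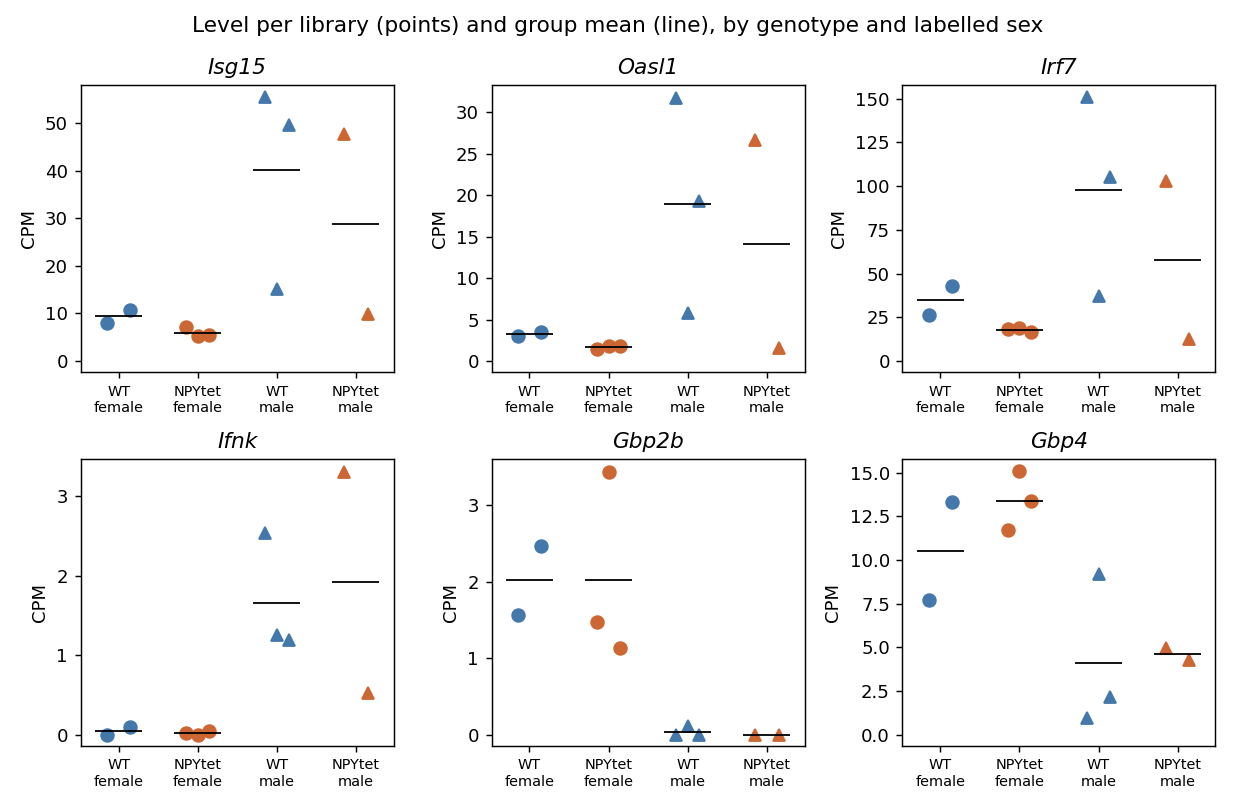
CPM (vertical axis, linear) of Isg15, Oasl1, Irf7, Ifnk, Gbp2b and Gbp4 in each library, by genotype and labelled sex, with a line at each mean. For Isg15, Oasl1 and Irf7, NPYtet 5 is the low point among the libraries labelled male, while Ifnk and Gbp2b separate the labelled sexes completely.

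All 7 guanylate-binding protein genes, whose products coat microbes and their vacuoles, had negative values by labelled sex, with a median of -1.12. That held with DESeq2, with limma voom, with other scaling and without each library in turn, although only Gbp2b was called by edgeR. With a replicate block, 6 of 7 were negative, with a median of -0.61. Gbp4 stood at 7.72, 13.3, 11.7, 15.1 and 13.4 CPM in the libraries labelled female and at 0.952, 9.20, 2.17, 4.96 and 4.30 CPM in those labelled male. Only WT 4 entered the female range. The median over the 7 genes was -0.73 without WT 2 and NPYtet 5. The immunity-related GTPases Irgm1, Igtp and Iigp1 had -0.41, -0.02 and -0.75. Of these, 1 was positive with DESeq2, with its size factors in edgeR and with limma voom. The same held without WT 2, WT 3, WT 4, NPYtet 1 or NPYtet 5. Without WT 2 and NPYtet 5 together, 2 of 3 were positive, with a median of 0.20. All 3 were positive with a replicate block. Tap1, Psmb8 and Psmb9 had 0.52, 0.50 and 0.12. Of the type I block, the 12 members with the ISRE letters in their window had a median of 1.16 and the 10 without of 0.28. Of the interferon gamma block, the 7 with the letters had a median of -0.68 and the 3 without (Tap1, Psmb8 and Psmb9) of 0.50.

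Beside the members, 109 other genes of the pathway were matched from lists by role, and 84 passed the filter. Of the 21 ligand genes, only Ifnk passed. Ifnk stood at 0, 0.094, 0.0246, 0 and 0.0458 CPM in the libraries labelled female and at 2.54, 1.26, 1.19, 3.31 and 0.529 CPM in those labelled male, without overlap. It was higher by 5.59 on the log2 scale in the libraries labelled male (SE 0.80, edgeR adjusted p = 0.00478). Leaving out 1 library at a time, Ifnk was higher by 4.75 (without NPYtet 2) to 6.55 (without WT 3). Its genotype value was -0.05 (SE 0.64, adjusted p = 0.999), with a sign that turned without WT 2, WT 3, NPYtet 3 or NPYtet 5 (0.22, 0.43, 0.08 and 0.46). Ifng had 0 to 11 reads per library and Ifnb1 0 to 1, too few to test.

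None of the 6 receptor genes or the 10 genes of JAK-STAT signalling was called by either term. Of 7 feedback inhibitors, Socs3, which blocks JAK kinases downstream of several cytokines, was called higher in the libraries labelled male (2.66, SE 0.57, edgeR adjusted p = 0.0286). Of 21 further interferon gamma genes, Gbp8 was called lower (-2.90, SE 0.62, edgeR adjusted p = 0.0286), in the direction of the 7 members of its family. Over all 84 genes, 2 were called higher and 1 lower by labelled sex, against 1.36% and 1.12% of all genes. By genotype 0 of 84 were called by edgeR, 56 values were positive and 28 negative, and the median was 0.10. At an unadjusted p under 0.05 by genotype, 3 of 84 were higher in NPYtet, against 1.46% of all genes. They were Tlr7, an endosomal RNA sensor (0.89), B2m, the light chain of MHC class I (0.98), and Ubd, a ubiquitin-like modifier (2.08). B2m and Ubd read 5293 and 13.1 CPM in NPYtet 5, against at most 1603 and 0.891 CPM in the other 9 libraries. Without NPYtet 5 their log2 fold changes were 0.23 and 0.49.

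Summed markers of neutrophils and of keratinocytes separated by the labelled sex, and those of other cell types overlapped. The 6 neutrophil markers summed to 7.19 to 12.0 CPM in the libraries labelled female and to 82.7 to 532 CPM in those labelled male, with 4 of 5 tested called higher and with Ly6g at 0 in the median library. In the libraries labelled male this sum was mostly S100a8 and S100a9. In NPYtet 5 they read 52.3 and 28.3 CPM of the 82.7 CPM, so the other markers added little there. The 5 keratinocyte markers summed to 8349 to 14982 CPM in the libraries labelled female and to 15554 to 56589 CPM in those labelled male, with 1 of 5 called. The 9 hair shaft markers matched summed to 2.39 to 23.5 CPM in 4 libraries labelled female, to 4698 CPM in the fifth (WT 1) and to 413 to 8356 CPM in those labelled male, with 0 of 9 called by edgeR. The 5 markers of all leukocytes ran from 194 to 375 CPM and from 134 to 671 CPM, with 1 of 5 called lower in the libraries labelled male. The ranges for 5 macrophage markers (370 to 634 and 216 to 666 CPM), 5 T cell markers (28.1 to 68.2 and 17.9 to 58.9 CPM), 5 NK cell markers (7.05 to 16.7 and 8.14 to 15.4 CPM) and 3 plasmacytoid dendritic cell markers (149 to 216 and 79.0 to 254 CPM) overlapped. The ranges for markers of Langerhans and dendritic cells, white adipocytes and skeletal muscle overlapped as well. NPYtet 1 lay with the libraries of its label, at 12.0 CPM for neutrophil and 12204 CPM for keratinocyte markers. The part of these cells in the differences of Isg15, Oasl1, Ifnk and the guanylate-binding proteins was not tested. In whole skin, fewer cells of a type and less RNA per cell cannot be told apart.

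Exon length moved with the sex difference as well. Across the 44 members, which are not independent replicates, combined exon length and the log2 fold change by labelled sex had a Spearman rho of -0.44. The value was -0.51 in the type I block and -0.14 in the interferon gamma block, against -0.21 over 18026 genes with a length. Short members such as Isg15 and Ifi27l2a lay high and long ones such as Parp14 and Herc6 low. Without WT 2 and NPYtet 5 the values were -0.35 over the members, -0.33 in the type I block, -0.17 in the interferon gamma block and -0.06 over all genes. All points share the same libraries.

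**Figure D4:**
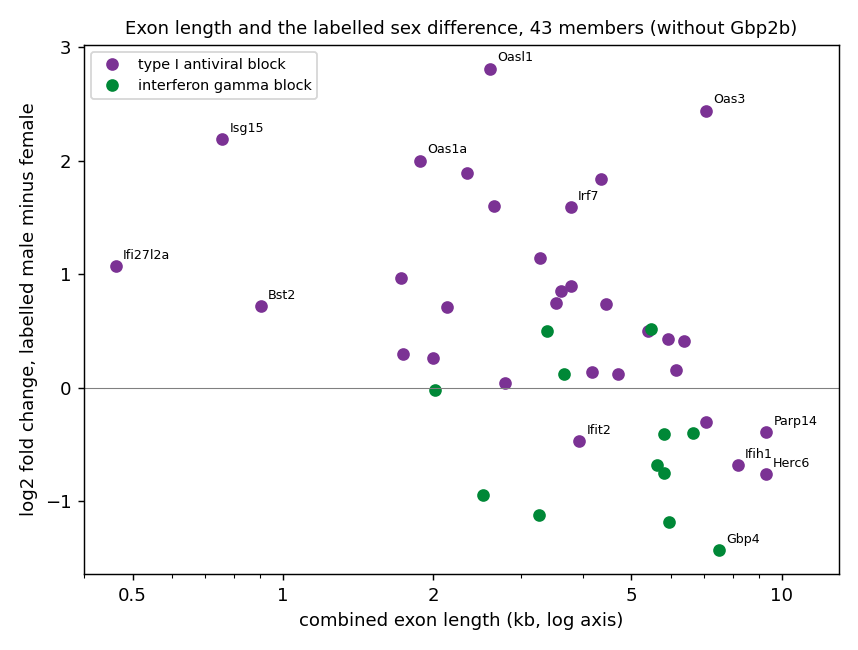
Combined exon length in kilobases (horizontal axis, log scale) against the log2 fold change by labelled sex (vertical axis) for 43 members, coloured by block, with Gbp2b at -5.82 outside the plot. The 5 type I members below 0 have 3927 bases or more of exons, and all shorter ones lie above 0.

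Reads of near-identical genes could be split between copies by the authors' counting. Words of 75 bases shared with another gene made up over 10% of the exonic sequence in 8 members. The shares were 47.6% for Oas1a and 36.9% for Oas1g, which share with each other, 41.1% for Ifit3 and 35.7% for Ifit3b, likewise a pair, 67.3% for Gbp6, 11.3% for Gbp7, 11.3% for Herc6 and 10.5% for Rtp4, so the levels of these genes are uncertain. In 23 members, Isg15 and Oasl1 among them, no such word was shared. Tap1 and Psmb9 overlap on opposite strands, and the sources used here do not say which strand was counted, so their reads may not be separate.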

How the data were processed

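The authors deposited 10 files, 1 for each library, with raw read counts as whole numbers beside Ensembl gene IDs. Per the submitters' processing notes, mm10 was the build, and the tools named are STAR 2.5.2, DESeq2 1.30.1, Trimmomatic 0.36, FastQC 0.11.8 and bcl2fastq. The libraries are strand-specific per the labels' protocols; which strand was counted, and with which annotation release, the sources used here do not give. Of 49671 IDs, 49412 matched GENCODE M21, and the other 259 hold 0.0189% of reads. No pair of libraries of a group agreed within sampling noise in a chi-square test.

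Counts were fitted in R 4.3.3 with edgeR 4.0.16 (filterByExpr with a minimum count of 10 and total of 15, TMM scaling, robust quasi-likelihood test on labelled sex and genotype, Benjamini-Hochberg adjustment over 18060 genes, threshold 0.05). Depth ran from 23209405 to 53357695 reads, a count of 0 allows up to 3 reads, and such limits cover counting error only. Log2 CPM uses a prior count of 2, and RPKM divides by the combined exon length. The fit was tested on simulated data. The members and lists were chosen with earlier results of these data known. Fold changes with their errors are given for the 8 type I and 5 interferon gamma members of smallest p by genotype, the 3 members of smallest p by sex, Npy, and up to 2 genes of smallest p in each pathway list; other members are given by their values. Alternatives were DESeq2 1.42.0, limma 3.58.1 (voom with quality weights), other scaling and filters, other covariates, a replicate block, leaving out each library and, chosen after seeing the data, leaving out the libraries named as standing apart. Promoter windows are from RefSeq on GRCm38.p6. An item withheld from this text is not reported here.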

Additional observations from a re-analysis of the deposited data

Results flagged for a closer look

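In 17 of 92 groups tested (each of 44 members and both block scores, in each genotype), 1 library lay farther from its nearest neighbour, relative to the whole range of the group, than Dixon's 95% critical value of 0.71 for 5 libraries. Members were compared in CPM and the scores on the log2 scale. Dixon's value assumes normally distributed values, which levels in CPM need not be, and the members share libraries. No chance rate is therefore set beside the flags. All 17 were members of the type I antiviral block in the NPYtet group, and in all 17 the high library was NPYtet 2. For the oligoadenylate synthetases the level in NPYtet 2 was 35.2 CPM for Oas1a, 10.2 CPM for Oas1g, 41.8 CPM for Oas2, 32.8 CPM for Oas3, 26.7 CPM for Oasl1 and 73.7 CPM for Oasl2. Among other genes of antiviral families it was 41.5 CPM for Ifit1, 41.6 CPM for Ifit3, 24.1 CPM for Mx1, 9.93 CPM for Mx2 (annotated as a polymorphic pseudogene), 44.4 CPM for Rsad2 and 55.2 CPM for Bst2. For the modifier Isg15 it was 47.8 CPM, for the transcription factor Irf7 103 CPM, for the sensors Dhx58 and Zbp1 26.1 and 36.2 CPM, and for Rtp4 31.9 CPM. NPYtet 2 also had the highest sum of neutrophil markers of any library, 532 CPM (S100a8 234 and S100a9 222 CPM), and the highest Ifnk level, 3.31 CPM. The part of these in its antiviral levels was not tested.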

How the results depend on the processing

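The count of 0 members called by genotype held under all 19 alternatives run. Over all genes, 1 gene was called by genotype, against 35 with DESeq2, 2 with limma voom, 409 with no filter on low counts, 0 without WT 2, NPYtet 1 and NPYtet 5, and 1 to 8 leaving out 1 library at a time (8 without WT 3). Members called by labelled sex were 3, against 12 with DESeq2, 19 with limma voom, 10 with no filter, 8 without WT 2 and NPYtet 5, 7 without these and NPYtet 1, and 1 to 11 leaving out 1 library (9 without NPYtet 5, 11 without WT 4). Counts over all genes moved too, from 448 of 18060 to 2380 of 32857 with no filter, 666 of 18286 and 949 of 18674 without those 2 and 3 libraries, and 2725 of 18321 without WT 4. The replicate numbers do not pair the libraries: same-numbered libraries correlated at -0.256 to 0.644, and none of the 5 numbers had its own number as best match. With a replicate block, 0 members were called by sex, the type I median by sex was -0.12, and Isg15, Oasl1, Gbp2b and Ifnk stood at 0.53, 0.30, -3.08 and 4.09. The type I median by genotype ranged from -1.07 (without NPYtet 2) to 0.18 leaving out 1 library, by sex from -0.21 to 0.94, and the interferon gamma median by sex from -1.08 to -0.47. By genotype, Igtp and Gbp2 turned with limma voom (-0.03 and -0.05), and leaving out 1 library Igtp ranged from -0.18 to 0.62, Gbp2 from -0.08 to 0.57, Irgm1 from -0.35 to 0.70 and Ifnk from -1.36 to 0.46 (0.88 without WT 2, NPYtet 1 and NPYtet 5). Leaving out 1 library, Isg15 by sex ranged from 1.61 to 2.5 and Oasl1 from 1.71 to 3.18. Npy kept 7.45 without those 3 libraries, with an edgeR adjusted p of 0.133, and Ubd by genotype (2.05) passed with no filter (adjusted p = 0.0221). The cause of these shifts was not tested. Removing WT 2, NPYtet 5 and NPYtet 1 was chosen after seeing the data. Depth limits genes with few reads, such as Gbp2b and Ifnk.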
